A study of Mus musculus with 8 samples.

Results

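Imprinted genes are genes of which 1 parental copy is transcribed and the other is kept silent. A set of 41 mouse genes known for this behaviour was chosen by name, and each was found by its Ensembl identifier among the 49585 gene rows of the count table. After genes with low counts were removed, 40 of the 41 were among the 22693 genes tested, and the transporter gene Slc22a2, with 0 to 17 reads per library, was left out. RNA sequencing had been done on whole uteri with the fetal tissue inside, taken at embryonic day 8 (E8) from Foxp3DTR females, 8 weeks old, that had been mated with BALB/c males. In these females the diphtheria toxin receptor is carried by cells that express Foxp3, the defining factor of regulatory T cells. The DT group (4 libraries, replicates 1, 3, 4 and 5) received 1 µg of diphtheria toxin into the abdominal cavity on E1, E3, E5 and E7, and the PBS group (4 libraries, replicates 1, 2, 4 and 6) received buffer on the same days. Both groups share the receptor strain, the BALB/c sires, the age and the day of collection. Values per library are given below in this order of replicates.

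The methylation that marks the silent copy is laid down in the egg or the sperm, and usually covers a control region that acts on several neighbouring genes. Many genes expressed from the father's copy, such as Igf2 and Peg10, promote growth of the fetus and placenta, and many expressed from the mother's copy, such as Phlda2, Cdkn1c and Grb10, restrain it. The placenta and the extra-embryonic membranes are known for high expression of imprinted genes. The counts are totals per gene, so the parental copy that was read was not measured here.

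The libraries held 94794512 to 109847604 counted reads, and every pair of the 8 differed by more than counting error. The labels state a loss of 85% of regulatory T cells, while Foxp3 was at 5.12, 5.1, 5.72 and 5.69 CPM (a gene's reads scaled to a fixed total per library) in the DT libraries and at 4.89, 4.36, 5.44 and 4.86 CPM in the PBS libraries, so it was not lower in the libraries labelled DT. PBS replicates 1 and 2 stood apart in summed markers of trophoblast, red cells and embryo, but not both in those of the yolk sac. The summed level of 22 trophoblast markers was 506 and 1353 CPM in these 2 libraries and 28 to 107 CPM in the other 6. The summed level of 9 embryonic red cell markers was 59.9 and 351 CPM against 4.43 to 24.5 CPM. That of 17 embryo markers was 50.1 and 79.8 CPM against 15.8 to 35.4 CPM. For 16 yolk sac markers it was 139 and 284 CPM, with 171 CPM in DT replicate 1 and 79.5 to 100 CPM elsewhere. A conceptus score was made from 2 red cell, 9 yolk sac, 12 trophoblast and 4 embryo markers: the log2 level around its average was averaged within each list, and the 4 lists then counted equally. It was -1.39, 0.17, -0.17 and -0.04 in the DT libraries and 1.15, 1.96, -1.07 and -0.62 in the PBS libraries. The parts of the score did not all follow the sums. Its yolk sac part was 0.73 and 1.70 in PBS replicates 1 and 2 and -0.56 to -0.11 elsewhere. Its red cell part was 0.64 and 1.16 in these libraries, with 1.17 in DT replicate 4. The groups overlapped in the conceptus score (DT minus PBS -0.71, exact permutation test, two-sided, p = 0.429). Uterine tissue moved with it: summed markers of the myometrium, the muscle layer, were at 1738 and 1624 CPM in PBS replicates 1 and 2 and at 1689 to 3832 CPM in the other 6, and summed natural killer and leukocyte markers were at 1839 and 2142 CPM against 530 to 1000 CPM. The part of these tissues in the results below was not tested. In whole tissue, more cells of a type and more RNA per cell cannot be told apart.

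None of the 40 imprinted genes was called as different between DT and PBS. edgeR's quasi-likelihood test with Benjamini-Hochberg adjustment called 73 genes higher in DT (0.322% of all tested) and 1 lower (0.00441%). It called 0 of the imprinted genes in either direction. Of the same 22693 genes, DESeq2 called 275 higher and 58 lower and limma voom 51 and 1, each with 0 imprinted genes. In edgeR, 4 imprinted genes had an unadjusted p under 0.05, with Nnat higher and Igf2, Peg10 and Tfpi2 lower in DT, where 8.7% of all genes passed this limit. The 4 values of 1 group lay wholly above or below those of the other for 0 of the 40, where 3.33% of all genes tested had DT wholly above and 1.73% wholly below (5.06% in all). The median log2 fold change, DT minus PBS, was -0.11 over the imprinted genes and 0.01 over all genes. Their 95% confidence intervals were wide where PBS replicates 1 and 2 were high, and the largest differences were those of Peg10 (-3.14, interval -5.77 to -0.50) and Igf2 (-2.18, interval -4.30 to -0.05).

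The imprinted genes fell into those that followed the conceptus score across the 8 libraries and those that did not. The slope, with treatment in the model, is the log2 change of a gene per log2 unit of the score. A slope of 1 is thus a change in proportion to the average of the markers. Single markers used in the score had slopes from -1.15 to 2.67. Of the 40 genes, 13 rose with the score (32.5%), where 9.63% of all genes tested did. A further 5 fell as the score rose (12.5%), where 10.5% of all genes did, and 22 were not called (20.1% of all genes were called in either direction). A called slope of at least 1 was found for 7 of the 40 and for 0.947% of all genes. Without PBS replicates 1 and 2 the share of rising genes was close to that of all genes (5 of the 40, against 2744 of 23496). The 13 that rose were Peg10, Igf2, H19, Phlda2, Usp29, Magel2, Sfmbt2, Ascl2, Tfpi2, Mirg, Dlk1, Peg3 and Snrpn, with slopes from 1.67 to 0.20. All 13 were highest in PBS replicate 2. The 5 that fell were Nap1l5, Sgce, Airn, Grb10 and Cd81, with slopes from -0.49 to -0.15, and each was lowest in PBS replicate 1 or 2. By the parental copy known to be expressed, the 13 comprised 8 paternal and 5 maternal genes, out of 22 paternal and 16 maternal genes tested.

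The treatment differences followed the same division. Genes chosen by slope tend to do so, since the score averaged lower in DT, so this is no separate result. All 13 genes that rose with the score were lower on average in DT (log2 fold changes -3.14 to -0.25), and all 5 that fell were higher (0.18 to 0.47). With the score as a term in the treatment model, the 13 lay between -0.65 and 0.06 and the 5 between 0.05 and 0.13. This shrinkage is no separate result either, as the genes were chosen by their slope in that same model. That model called 144 genes higher (0.635%) and 9 lower (0.0397%), with 0 imprinted genes among them. At an unadjusted p under 0.05 there were 2 imprinted genes, and 1973 of all 22693 genes. The median log2 fold change of the imprinted genes was -0.06 in that model. Without PBS replicates 1 and 2, the difference changed sign for H19 (0.72), Igf2 (0.53), Peg10 (0.41), Phlda2 (0.85) and Sfmbt2 (0.61). That fit called 0 of the 40, and of all 23496 genes it called 0 higher and 1 lower.

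**Figure D1:**
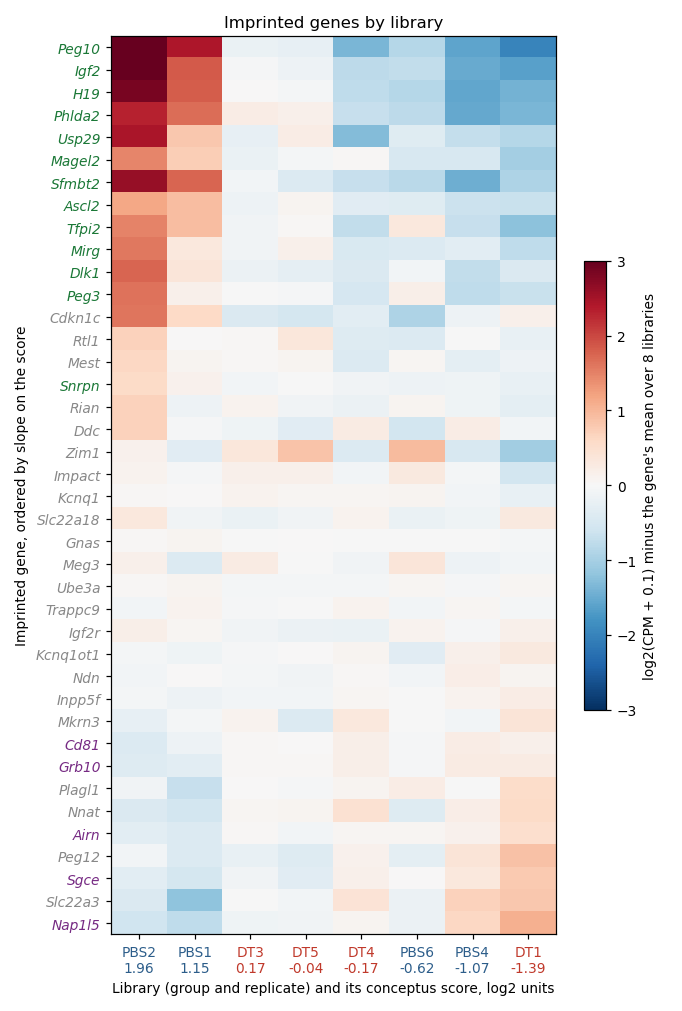
Heat map of the 40 tested imprinted genes (rows, ordered by slope on the conceptus score) in the 8 libraries (columns, ordered by the score printed under each). Colour is log2(CPM + 0.1) minus the gene's mean over the libraries and saturates at 3. Row names are green for the 13 genes that rose with the score, purple for the 5 that fell and grey for the rest. PBS replicates 2 and 1, at scores of 1.96 and 1.15, carry the high values of the upper rows, and DT replicate 1 and PBS replicate 4 stand at the other end.

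How far the slopes rest on those 2 libraries was examined by leaving them out. The signs of all 18 called slopes were kept without PBS replicates 1 and 2, and 7 of the 18 were still called: H19, Igf2, Peg10 and Phlda2 rising, and Airn, Sgce and Nap1l5 falling. That fit also called 4 genes not called from all 8 libraries, with Impact rising and Peg12, Inpp5f and Cdkn1c falling. In all it called 5 of the 40 imprinted genes as rising and 6 as falling. Of all 23496 genes tested in that fit, 2744 were called as rising and 2122 as falling, so the share that rose was close to that of the imprinted genes. Without PBS replicate 2 and DT replicate 1, the 2 libraries farthest from the median score, 6 of the 18 were still called, namely H19, Igf2, Peg10, Phlda2, Ascl2 and Sfmbt2, all rising. Of all 22669 genes in that fit, 375 rose and 133 fell, against 2186 and 2379 of 22693 from all 8 libraries. When single libraries were left out, 7 slopes were called each time: H19, Igf2, Peg10, Phlda2, Ascl2, Sfmbt2 and Magel2, with adjusted p of at most 0.0481. The other 11 lost their call without PBS replicate 4, among them Tfpi2 at an adjusted p of 0.0575 and Cd81 at 0.188. Fewer of all genes were called in that fit too, with 351 of 22980 rising and 289 falling. Of the 18, 11 were still called without PBS replicate 2, 13 without PBS replicate 1, 14 without DT replicate 3 and 17 without each of the other 4. Peg10, Igf2, H19 and Phlda2 were called under each of these settings. With a score from the red cell list alone, 0 of the 18 were called, and 13 had an unadjusted p under 0.05. Of all 22693 genes, 2 were called as rising and 0 as falling with that score.

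**Figure D2:**
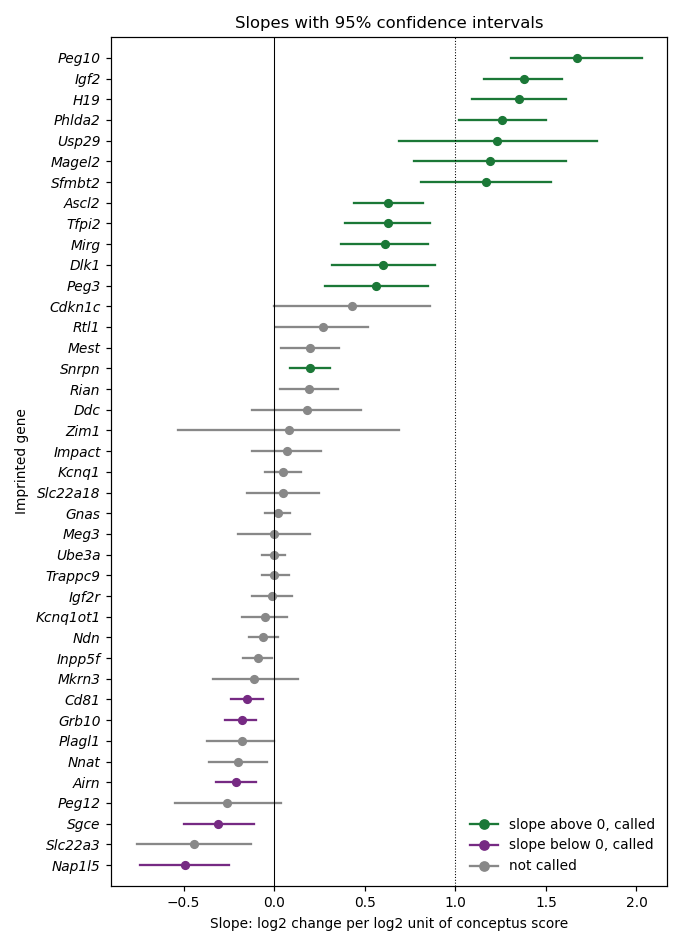
Slope of each of the 40 imprinted genes on the conceptus score, in log2 change per log2 unit of score, with its 95% confidence interval (8 libraries, treatment in the model). The dotted line marks a slope of 1. The intervals of Peg10, Igf2, H19 and Phlda2 lie above 1, and those of Igf2r, Meg3, Ube3a and Trappc9 span 0.

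Upstream sequences of 6 genes are shown because they stand at start sites on both sides of this division: Igf2, Ascl2, Sfmbt2 and Peg3 rose with the score, and Nap1l5 and Grb10 fell. They are RefSeq promoter windows of the GRCm38.p6 build, 5′ to 3′ on the gene's strand, cut to the bases before the start that lie in no annotated exon, with CpG dinucleotides, the sites of DNA methylation, in capitals. The Igf2 stretch lies at chr7:142661306-142661505 (minus strand), Ascl2 at chr7:142969265-142969464 (minus), Sfmbt2 at chr2:10372236-10372435 (plus), Nap1l5 at chr6:58907127-58907261 (minus) and Grb10 at chr11:12037421-12037620 (minus). The Peg3 stretch at chr7:6730432-6730577 (minus) is the whole gap of 146 bases between the starts of Peg3 and Usp29, which run in opposite directions.
Igf2: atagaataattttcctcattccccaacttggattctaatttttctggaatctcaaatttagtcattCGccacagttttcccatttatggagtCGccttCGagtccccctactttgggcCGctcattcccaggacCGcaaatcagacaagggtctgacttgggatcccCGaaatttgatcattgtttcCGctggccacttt
Ascl2: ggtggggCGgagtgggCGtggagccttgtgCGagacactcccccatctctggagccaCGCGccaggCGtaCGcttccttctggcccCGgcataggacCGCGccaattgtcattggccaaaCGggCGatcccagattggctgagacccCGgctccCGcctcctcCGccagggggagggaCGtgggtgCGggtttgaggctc
Sfmbt2: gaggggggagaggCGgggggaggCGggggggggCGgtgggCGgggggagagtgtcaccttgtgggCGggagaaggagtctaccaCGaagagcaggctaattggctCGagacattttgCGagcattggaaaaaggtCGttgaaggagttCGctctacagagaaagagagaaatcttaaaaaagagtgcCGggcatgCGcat
Peg3 and Usp29: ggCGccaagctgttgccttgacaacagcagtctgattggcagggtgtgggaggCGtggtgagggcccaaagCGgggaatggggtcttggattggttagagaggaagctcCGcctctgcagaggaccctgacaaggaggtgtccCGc
Nap1l5: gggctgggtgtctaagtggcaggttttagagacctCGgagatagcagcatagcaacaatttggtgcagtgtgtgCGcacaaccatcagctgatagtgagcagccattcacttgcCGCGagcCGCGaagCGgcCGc
Grb10: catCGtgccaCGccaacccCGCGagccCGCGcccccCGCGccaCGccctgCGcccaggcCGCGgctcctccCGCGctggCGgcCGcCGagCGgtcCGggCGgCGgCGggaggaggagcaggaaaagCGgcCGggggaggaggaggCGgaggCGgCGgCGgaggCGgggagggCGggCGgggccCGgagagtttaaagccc

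The number of CpG differed among stretches of either direction. Grb10, which fell with the score, held 32 CpG in 200 bases, Ascl2, which rose, held 17, Sfmbt2 held 12 and Igf2 held 7, while the Peg3 and Usp29 gap held 5 in 146 bases and Nap1l5 held 8 in 135 bases. Where a gene had several windows, the longest stretch was shown, and among equals the one with the most CpG. The number thus depends on the window: whole windows of 300 bases held 45 and 9 CpG for Grb10, 9 and 16 for Sfmbt2 and 2, 14, 24 and 7 for Igf2. RefSeq windows of 300 bases were matched for 33 of the 41 genes (50 windows), with a median of 12 CpG against 7 over 32851 windows. The median was 9.5 CpG in windows of genes that rose with the score (20 windows), 17 in those of genes that fell (5 windows) and 15 in those of genes not called (24 windows). The letters TGCCGC, searched on both strands and known as the core bound by the imprint-protecting factor ZFP57, occurred in 22% of the imprinted windows and in 11.6% of all windows. The share was 10% for windows of genes that rose (2 of 20), 40% for those of genes that fell (2 of 5, from 4 genes) and 25% for those of genes not called (6 of 24). These counts are small, and windows of the same gene, which can overlap, were counted separately. The letters themselves hold a CpG, and the part of CpG number in these shares was not tested. Of the 6 stretches shown, that of Nap1l5 alone held these letters.

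H19 and Igf2 start 88672 bases apart on chromosome 7 and share their enhancers. Igf2 is the fetal growth factor, read from the father's copy, and H19 is a noncoding RNA read from the mother's. H19 was at 59, 161, 93.1 and 152 CPM in the DT libraries and at 562, 1152, 53.6 and 87.4 CPM in the PBS libraries. PBS replicates 1 and 2 were high, and the other PBS libraries lay within or below the DT range. The log2 fold change was -2.00 ± 0.91 (SE, edgeR adjusted p = 0.571), while the slope on the score was 1.35 ± 0.11 (adjusted p = 0.00114). Igf2 was also highest in PBS replicates 2 and 1, with 11.3, 34.2, 20.3 and 31.4 CPM in DT and 125, 281, 12.3 and 21.1 CPM in PBS. Its log2 fold change was -2.18 ± 0.93 (adjusted p = 0.571) and its slope 1.38 ± 0.09 (adjusted p = 6.24e-04). Per kilobase of exon the mean level over the 8 libraries was 118 CPM per kb for H19 against 11.7 for Igf2. Of the reads counted for the 41 genes, H19 took 1.97% to 5.73% in 6 libraries and 16.2% and 23.7% in PBS replicates 1 and 2. Exons of Igf2 overlap other annotated genes over 64.5% of their length, and the overlapping antisense gene Igf2os had 3.8% as many reads as Igf2.

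Igf2r, the maternal receptor that removes IGF2 from the cell surface, did not follow its ligand. It was at 217, 182, 171 and 174 CPM in DT and 204, 219, 191 and 210 CPM in PBS, a 1.28-fold range over all 8 libraries. Its slope was -0.01 (95% interval -0.12 to 0.10) and its log2 fold change -0.15 (adjusted p = 0.58). The ratio of Igf2 to Igf2r reads therefore ran from 0.0522 in DT replicate 1 to 1.28 in PBS replicate 2. Airn, the paternal noncoding RNA that starts inside Igf2r on the other strand and is needed to silence it, was at 13.2, 9.58, 9.63 and 8.81 CPM in DT and 6.95, 7.49, 10.2 and 9.67 CPM in PBS, and fell as the score rose (slope -0.21, adjusted p = 0.0224). Whether the counting used strand is not given in the sources used here, so reads of Airn and of Igf2r introns cannot be told apart. Slc22a3, a maternal organic cation transporter gene in the same cluster, was at 2.85, 1.55, 2.13 and 1.49 CPM in DT and 0.621, 1.13, 2.6 and 1.38 CPM in PBS. It was lowest in PBS replicates 1 and 2, and its slope of -0.44 just missed the threshold (adjusted p = 0.0525).

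Grb10, an adaptor protein that dampens insulin and IGF receptor signalling, was among the most abundant imprinted genes and ran opposite to Igf2. It was at 545, 468, 522 and 468 CPM in DT and 370, 351, 548 and 450 CPM in PBS. The 2 lowest values were those of PBS replicates 1 and 2. The slope was -0.18 ± 0.04 (adjusted p = 0.0167) and the log2 fold change 0.22 ± 0.15 (adjusted p = 0.586). Grb10 did not keep its call without PBS replicates 1 and 2, with a slope of -0.17 (adjusted p = 0.164).

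**Figure D3:**
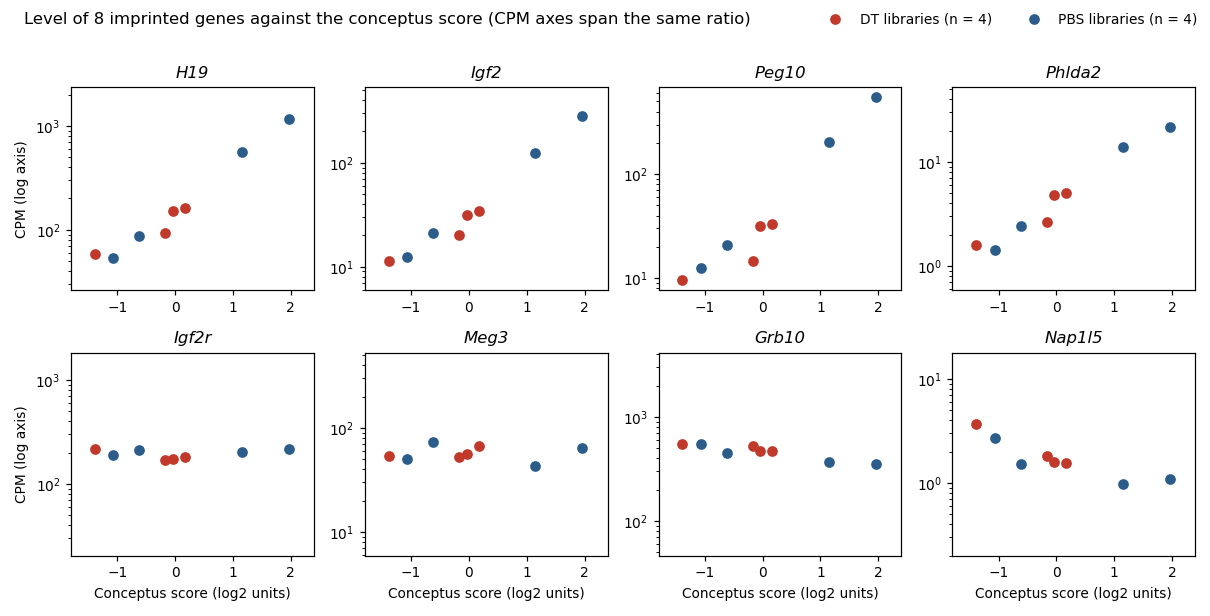
CPM of 8 imprinted genes (log axes that span the same ratio) against the conceptus score in log2 units, with DT libraries in red and PBS libraries in blue (n = 4 each). H19, Igf2, Peg10 and Phlda2 climb along the score, from 59 and 53.6 CPM at its low end to 1152 CPM at its high end for H19, while Igf2r and Meg3 stay level and Grb10 and Nap1l5 decline.

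Peg10, Phlda2 and Sfmbt2, known for their roles in the placenta, were among the 7 genes with a slope of at least 1. Peg10, a paternal gene derived from a retrotransposon and required for placental development, had the steepest slope of the 40, at 1.67 ± 0.15 (adjusted p = 0.00185). Its levels were 9.57, 33.4, 14.6 and 32 CPM in DT and 205, 549, 12.6 and 20.9 CPM in PBS, so that PBS replicates 1 and 2 were far above the other 6, which overlapped. The log2 fold change was -3.14 ± 1.15 (adjusted p = 0.552) and shrank to -0.65 with the score in the model. Phlda2, a maternal gene that limits placental growth, was at 1.6, 5, 2.63 and 4.77 CPM in DT and 14, 21.5, 1.42 and 2.44 CPM in PBS. It rose with the score with a slope of 1.26 ± 0.10 (adjusted p = 0.0011). Its log2 fold change went from -1.49 to 0.06 with the score as a term. Ascl2, a maternal transcription factor of the spongiotrophoblast lineage, had a shallower slope of 0.63 (adjusted p = 0.00492), with 0.692, 1.02, 0.887 and 1.23 CPM in DT and 2.3, 2.72, 0.699 and 0.869 CPM in PBS.

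Sfmbt2, a paternal Polycomb gene needed in trophoblast, had a slope of 1.17 (adjusted p = 0.00537) and ranged from 5.79 to 98.8 CPM. Tfpi2, a maternal protease inhibitor gene, had a slope of 0.63 (adjusted p = 0.00845) and ranged from 6.42 to 42.3 CPM. Its log2 fold change was -1.14 (adjusted p = 0.562) and -0.57 with the score, the lowest of the maternal genes in that model. Cdkn1c, the maternal cyclin-dependent kinase inhibitor, did not behave as Phlda2, its neighbour in the Kcnq1 cluster. It was at 64.3, 42.3, 46.2 and 39.8 CPM in DT and 87.4, 174, 51.7 and 30.3 CPM in PBS. PBS replicate 2 was high, but DT replicate 1, with the lowest score, stood above the other DT libraries. The slope of 0.43 was not called (adjusted p = 0.133), and it was -0.52 without PBS replicates 1 and 2 (adjusted p = 0.0414). Exons of Cdkn1c overlap Gm44732 on the other strand over 30.7% of their length.

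The rest of the Kcnq1 cluster on chromosome 7 varied less. The potassium channel gene Kcnq1 ranged from 6.47 to 8.12 CPM, the paternal noncoding RNA Kcnq1ot1 from 45.7 to 70.4 CPM and the transporter gene Slc22a18 from 1.39 to 2.03 CPM, with slopes of 0.05, -0.05 and 0.05 that were not called. Cd81, a tetraspanin gene at its edge, was abundant at 216 to 334 CPM and fell as the score rose (slope -0.15, adjusted p = 0.0338). The cluster thus held genes of every class: Phlda2 and Ascl2 rose, Cd81 fell and 4 were not called.

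Peg10 and Sgce start 98 bases apart on chromosome 6, run in opposite directions and are both read from the father's copy, yet their slopes had opposite signs. Sgce, which encodes the membrane protein epsilon-sarcoglycan, was at 21.4, 11.5, 13.7 and 9.75 CPM in DT and 8.55, 9.91, 15.5 and 12.4 CPM in PBS. It was highest in DT replicate 1, where Peg10 was lowest, and its slope was -0.31 ± 0.08 (adjusted p = 0.0397). The ratio of Peg10 to Sgce reads was 0.448, 2.91, 1.06 and 3.28 in DT and 24, 55.4, 0.816 and 1.68 in PBS. This was the widest range among the 8 ratios computed, and the groups overlapped (exact permutation test, two-sided, p = 0.286, adjusted p = 0.49). Without PBS replicates 1 and 2 the slopes stayed opposite, at 1.15 for Peg10 (adjusted p = 0.0348) and -0.65 for Sgce (adjusted p = 0.0105). The call for Sgce was lost when DT replicate 1, 3 or 4 or PBS replicate 1 or 4 was left out alone, with adjusted p up to 0.159, and that for Peg10 was kept without each single library.

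In the Dlk1-Meg3 cluster on chromosome 12 the paternal Dlk1 rose with the score and the maternal Meg3 was not called. Dlk1, a membrane protein related to Notch ligands, was at 2.15, 2.58, 2.16 and 2.44 CPM in DT and 3.81, 10.2, 1.74 and 2.8 CPM in PBS. PBS replicate 2 stood apart, and Dlk1 had a slope of 0.60 (adjusted p = 0.0174), which was 0.32 without that library (adjusted p = 0.0795). Meg3, a noncoding RNA, was at 53.5, 67.2, 52.8 and 56.4 CPM in DT and 43.1, 63.6, 50.9 and 73 CPM in PBS, with a slope of 0.00 (95% interval -0.20 to 0.20). The ratio of Meg3 to Dlk1 reads lay between 23.1 and 29.3 in 6 libraries and was 11.3 and 6.21 in PBS replicates 1 and 2. The maternal noncoding RNAs downstream of Meg3 differed from it in part. Mirg, a microRNA host transcript, rose with the score (slope 0.61, adjusted p = 0.00974, 1.14 to 6.19 CPM). Rian, a small nucleolar RNA host, had a slope of 0.19 (adjusted p = 0.086) and the retrotransposon-derived paternal gene Rtl1 had a slope of 0.27 (adjusted p = 0.12), neither of them called.

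Peg3, a paternal zinc finger gene, and Usp29, a paternal deubiquitinase gene, start on either side of the 146-base gap shown above and both rose with the score. Peg3 was at 18.7, 29.4, 21.1 and 28.9 CPM in DT and 33.2, 92.6, 17.5 and 33.8 CPM in PBS. PBS replicate 2 stood alone at the top, and the slope of 0.56 ± 0.12 (adjusted p = 0.0207) was 0.31 without it (adjusted p = 0.145) and 0.47 without PBS replicate 4 (adjusted p = 0.118). Usp29 was rare, with 3 to 160 reads per library, and its slope of 1.23 had an interval from 0.69 to 1.78. Zim1, the maternal zinc finger gene beside Peg3, ranged from 1.59 to 6.63 CPM with a slope of 0.08, and it was highest in PBS replicate 6 and DT replicate 5.

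Of the 6 genes of the Snrpn-Ube3a cluster on chromosome 7, 2 rose with the score and 4 were not called. Ube3a, a ubiquitin ligase gene, stayed within 145 to 161 CPM (slope 0.00), the MAGE family gene Ndn within 18.4 to 22.6 CPM (slope -0.06) and Mkrn3, also a ubiquitin ligase gene, within 0.592 to 1.1 CPM (slope -0.11). None of these 3 slopes was called. Snrpn, which encodes a splicing protein, had a small slope of 0.20 (adjusted p = 0.0265) over 3.32 to 5.84 CPM. Magel2 was close to the limit of detection, with 1 read in DT replicate 1 and 48 in PBS replicate 2, and had a slope of 1.19 (adjusted p = 0.00739). Peg12, a member of the Frat family of Wnt signalling genes, was at 4.58, 2.09, 2.67 and 1.85 CPM in DT and 1.81, 2.32, 3.22 and 1.97 CPM in PBS. It was highest in DT replicate 1, and its slope of -0.26 was not called (adjusted p = 0.18), while without PBS replicates 1 and 2 it was -0.84 (adjusted p = 0.013). Exons of Snrpn and Ube3a overlap other genes over 34.1% and 27.3% of their length, and the antisense transcript Snhg14 had 26.6% as many reads as Ube3a.

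Nap1l5, a paternal gene for a nucleosome assembly protein of the NAP family, had the lowest slope of the 40, at -0.49 ± 0.10 (adjusted p = 0.0188). It was at 3.69, 1.55, 1.81 and 1.59 CPM in DT and 0.969, 1.09, 2.68 and 1.51 CPM in PBS, highest in DT replicate 1 and lowest in PBS replicates 1 and 2. Its slope was -0.91 without those PBS libraries (adjusted p = 0.00927), and it lost its call when PBS replicate 1 or 4 was left out alone (adjusted p up to 0.123). Nnat, which encodes the small membrane protein neuronatin, had the highest log2 fold change of the 40, at 0.57 ± 0.20 (adjusted p = 0.54). Its values were 21.2, 14.9, 19.5 and 15 CPM in DT and 9.69, 10.6, 16.5 and 10.8 CPM in PBS, where only PBS replicate 4 reached into the DT range. The difference was 0.44 with the score in the model (adjusted p = 0.413) and 0.37 without PBS replicates 1 and 2.

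The slopes of 7 further imprinted genes were not called. Gnas, which encodes the stimulatory G protein alpha subunit, stayed within 742 to 809 CPM with a slope of 0.02, and Trappc9, a vesicle trafficking gene, within 28.3 to 32.4 CPM with a slope of 0.00. Exons of Gnas overlap other genes over 22% of their length, and Gm20721 had 93.5% as many reads as Gnas. Mest, a paternal gene for a hydrolase-like protein, was at 157, 177, 130 and 182 CPM in DT and 182, 266, 142 and 180 CPM in PBS. PBS replicate 2 was highest, and the slope of 0.20 was not called (adjusted p = 0.0784). Copg2, which overlaps 23.1% of the Mest exon length on the other strand, had 61.9% as many reads. The translation regulator gene Impact (67.1 to 120 CPM), the zinc finger gene Plagl1 (25.9 to 61.3 CPM), the phosphatase gene Inpp5f (17.4 to 22.5 CPM) and the decarboxylase gene Ddc (0.614 to 1.59 CPM) had slopes of 0.07, -0.18, -0.09 and 0.18, none called. Without PBS replicates 1 and 2 the slope was 0.48 for Impact (adjusted p = 0.0093) and -0.21 for Inpp5f (adjusted p = 0.0418).

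Per kilobase of exon, the scale on which genes can be compared, the order of mean level was H19 (118 CPM per kb), Cd81 (101), Gnas (68.6), Grb10 (51.2), Mest (44.8), Cdkn1c (32.9), Igf2r (21) and Impact (19.3). H19 changed its place with the library: it ranged from 21.8 to 468 CPM per kb, while Cd81 ranged from 74.9 to 116 and Gnas from 66.4 to 72.3. Without PBS replicates 1 and 2 the mean of H19 was 41.1 CPM per kb (21.8 to 65.4), below those of Cd81 (107), Gnas (67.8) and Grb10 (55). Usp29, Magel2 and Rtl1 were lowest of the 40, at 0.0201, 0.0323 and 0.134 CPM per kb.

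**Figure D4:**
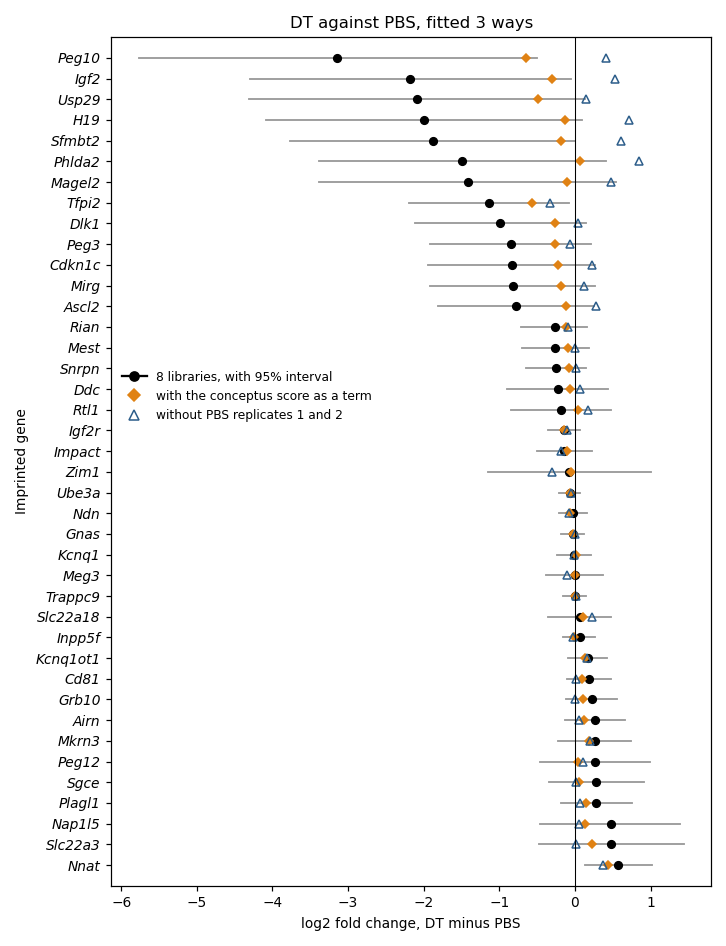
log2 fold change (DT minus PBS) of each of the 40 imprinted genes from all 8 libraries with its 95% confidence interval (black), with the conceptus score as a term (orange) and without PBS replicates 1 and 2 (blue triangles). The upper 13 genes, from Peg10 at -3.14 to Ascl2 at -0.78, move towards or past 0 in both other fits, and Nnat at the foot stays above 0 in all 3.

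Ratios of reads between paired imprinted genes remove library scaling. H19 to Igf2 was nearly constant although each gene ranged over 21.5-fold and 24.8-fold: it was 5.21, 4.71, 4.59 and 4.86 in DT and 4.48, 4.11, 4.36 and 4.14 in PBS. All 4 DT values lay above all 4 PBS values, a difference of 0.18 on the log2 scale. The exact permutation test, two-sided, gave p = 0.0286, the smallest that 4 against 4 libraries allow, and an adjusted p of 0.229 over the 8 ratios. The difference was 0.14 to 0.20 when single libraries were left out. Airn to Igf2r was 0.0608, 0.0526, 0.0564 and 0.0506 in DT and 0.0341, 0.0343, 0.0537 and 0.046 in PBS (exact permutation p = 0.0857, adjusted p = 0.343). For the other ratios the groups overlapped as well, with Kcnq1ot1 to Kcnq1 between 5.64 and 10.9, Rian to Meg3 between 0.572 and 0.996 and Cdkn1c to Phlda2 between 6.24 and 40.3.

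**Figure D5:**
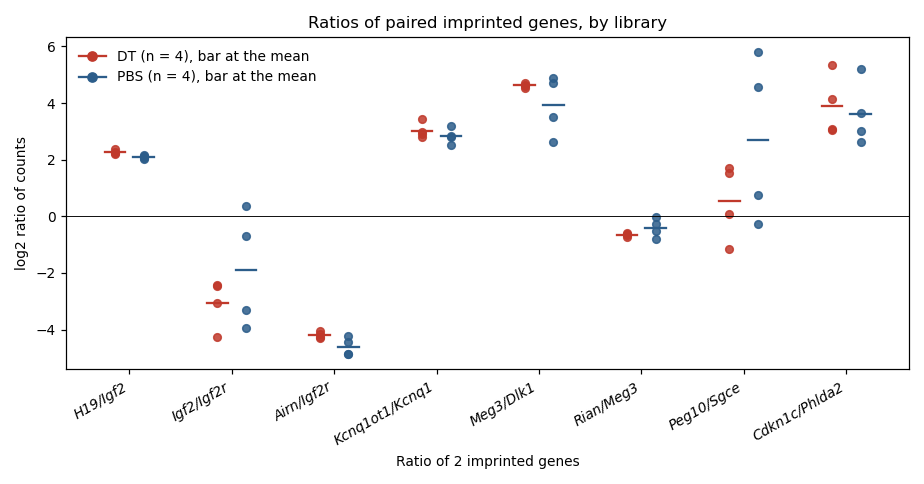
log2 ratio of counts for 8 pairs of imprinted genes in each DT (red) and PBS (blue) library, with a bar at the group mean (n = 4). H19 to Igf2 keeps to a narrow band from 4.11 to 5.21 as a ratio, and Peg10 to Sgce spreads from 0.448 to 55.4.

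A list of 49 further imprinted genes outside the 41 was examined for context. Of these 41 were tested, and edgeR called 0 for treatment (0.326% of all genes were called in either direction), with 5 at an unadjusted p under 0.05, against 8.7% of all genes. DESeq2 called 1, Smoc1, and limma voom 0. For the slope 7 rose (17.1%) and 3 fell (7.32%), against 9.63% and 10.5% of all genes. The steepest were Zfp264, a rare zinc finger transcript of the Peg3 region (1.33, adjusted p = 0.00194), and Slc38a4, an amino acid transporter of the placenta (0.80, adjusted p = 0.00416). Qpct, a glutaminyl cyclase gene (0.44, adjusted p = 0.00752), and Trpm5, a cation channel gene (0.53, adjusted p = 0.00781), also rose. Smoc1, a matrix protein gene, had the smallest treatment p of this list: 98.2, 111, 107 and 112 CPM in DT lay below 150, 155, 129 and 151 CPM in PBS. Its log2 fold change of -0.45 ± 0.08 missed the threshold (adjusted p = 0.0826) and passed with the score in the model (-0.40, adjusted p = 0.0439).

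Around Igf2, 17 of 18 genes of the IGF axis were tested, of which edgeR, DESeq2 and limma voom called 0 for treatment, and 1, the binding protein gene Igfbp4, was under 0.05 before adjustment in edgeR. With the score 4 rose (23.5%) and 6 fell (35.3%), against 9.63% and 10.5% of all genes. The risers were the mRNA-binding proteins of Igf2, Igf2bp1 (slope 1.34, adjusted p = 6.01e-04), Igf2bp3 (1.00, adjusted p = 6.15e-04) and Igf2bp2 (0.34, adjusted p = 0.0119), with the binding-protein protease gene Pappa (0.51, adjusted p = 0.00485). The genes that fell included the binding protein Igfbp3 (-0.26, adjusted p = 0.00845), the docking protein Irs1 (-0.30, adjusted p = 0.0096) and the receptors Insr (-0.15, adjusted p = 0.0208) and Igf1r (-0.22, adjusted p = 0.0435). Igf1, the related growth factor, had a slope of -0.24 (adjusted p = 0.0744).

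Few genes of the machinery that sets and keeps imprints were called. Of 20 genes 19 were tested, and edgeR, DESeq2 and limma voom called 0 for treatment, with 0 at an unadjusted p under 0.05. For the slope 1 rose and 1 fell (5.26% each, against 9.63% and 10.5% of all genes). The riser was the methyltransferase gene Dnmt3b (0.32, adjusted p = 0.00301), which is itself 1 of the score's markers, so this slope is no independent result. The gene for the imprint-protecting factor Zfp57 fell as the score rose (-0.23, adjusted p = 0.00726), with 38.3 to 46.1 CPM in the 4 DT libraries and 26.6, 25.4, 40.9 and 40.9 CPM in the PBS libraries. Dnmt1, the maintenance methyltransferase gene, ranged from 196 to 228 CPM with a slope of -0.01.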

How the data were processed

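Polyadenylated RNA from 8 uteri had been sequenced in pairs of reads. The authors deposited whole-number counts of reads per gene, for each library and as a table of the series, and these agreed in every cell. The submitters' processing notes name Trimmomatic, HISAT2, SAMtools, featureCounts, DESeq2 and the build GRCm38, without versions or roles. Whether multiply mapped reads were counted, and whether by strand, is not given in the sources used here.

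The counts were tested in edgeR 4.0.16 (R 4.3.3; limma 3.58.1, DESeq2 1.42.0 as alternatives) with filterByExpr (10 reads in enough libraries, 15 in all), TMM scaling, robust quasi-likelihood fits and Benjamini-Hochberg adjustment over 22693 genes, called at 0.05. All 8 libraries entered each fit: treatment alone (6 residual degrees of freedom), and treatment with the conceptus score (5). The score averages 4 marker lists, using genes with a mean of at least 0 log2 CPM (prior count 2) that are neither imprinted members nor maternal markers. Only Hba-a1 and Alas2, blood genes not limited to the embryo, represent red cells in it. Of the markers used, Spink1 (yolk sac, slope -1.15), Prl7a2 (trophoblast, -0.08) and Meox1 (embryo, -0.04) did not rise with the score. The rest had slopes from 0.08 (Trf) to 2.67 (Prl2c3). The level minimum left out markers that rose, such as Ttr (1.62) and Hnf4a (1.43). Ratios use raw counts and exact permutation tests. Gene symbols, exon lengths and overlaps came from GENCODE M21. Both fits were tested on simulated counts.

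The imprinted genes and all marker lists were chosen with earlier results of these data known. Values in every library are given for well-studied growth and placental genes, and, among genes with a mean of at least 0 log2 CPM, for the 3 largest and 3 smallest fold changes and the 4 largest and 4 smallest slopes. Nothing says how many conceptuses each uterus held. Label suffixes of unstated meaning each occur within 1 group, so they cannot be told apart from treatment. PBS replicates 1 and 2 share a suffix that no other library carries, so their high score cannot be told apart from it. Alternatives changed the scaling, filter, tool, score lists and libraries used. Leaving out PBS replicates 1 and 2 together, and the score without red cell genes, were chosen after seeing the data.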

Additional observations from a re-analysis of the deposited data

Results flagged for a closer look

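In 3 of 98 sets of 4 libraries that were checked, a single library lay far from the other 3, measured as its gap to the nearest value over the range of the set on the log2 scale. The limit used is passed by about 1 of 20 sets by chance. All 3 concern DT replicate 1, the library with the lowest conceptus score. Kcnq1 was lowest there, at 6.47 CPM against 7.86 to 8.12 CPM (gap share 0.856). Magel2 was lowest there, at 1 read against 9 to 12 (0.843). Ube3a was highest there, at 157 CPM against 145 to 146 CPM (0.899). That library also had the highest summed myometrium markers, at 3832 CPM, and the lowest decidual stroma markers, at 4921 CPM. The part of these in the 3 values was not tested.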

How the results depend on the processing

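None of the 40 imprinted genes was called for treatment under any of the 16 alternatives, each of which changed the scaling, filter, tool, model or libraries. Before adjustment, 0 to 16 of the 40 were below 0.05. The 16 came without PBS replicate 4, where 4946 of all 22980 genes were below 0.05. The 0 came without PBS replicates 1 and 2, where 857 of 23496 were. Counts over all genes moved more. The 73 genes higher in DT were 275 with DESeq2, 144 with the score, 0 without PBS replicates 1 and 2 and 0 to 115 without single libraries. The 1 lower gene became 2 with library size only, 58 with DESeq2, 9 with the score and 0 to 5 without single libraries. Replicate numbers 1 and 4 occur in both groups, their libraries' deviations from the group means correlated at -0.49 and 0.32, and so they were not treated as pairs. With the replicate block 0 genes were called higher and 0 lower, with 280 below 0.05 before adjustment and 1 residual degree of freedom.

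All 18 called slopes kept their sign under the 18 alternatives. The 13 imprinted genes that rose with the score were 0 with the erythroid list alone, 6 without the 2 libraries farthest from the median score, 5 without PBS replicates 1 and 2, and 7 to 14 without single libraries. The 5 that fell were 0 with the erythroid list alone, 0 with the yolk sac list alone, 8 with trophoblast alone, 9 with embryo proper alone, 0 without the 2 farthest libraries and 0 to 7 without single libraries. Over all genes the 2186 risers were 2, 594 and 3707 with the erythroid, yolk sac and embryo lists alone, 375 without the 2 farthest libraries and 351 to 2402 without single libraries. The 2379 that fell were 0, 185, 3669, 133 and 289 to 2251 in the same order. Without PBS replicates 1 and 2, 2744 of 23496 genes rose and 2122 fell, where 5 and 6 imprinted genes did. The cause was not tested.

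The sign of an uncalled log2 fold change turned without PBS replicates 1 and 2 for H19 (0.72), Igf2 (0.53), Cdkn1c (0.23), Phlda2 (0.85), Ascl2 (0.28), Dlk1 (0.04), Rtl1 (0.17), Mirg (0.12), Usp29 (0.15), Peg10 (0.41), Ddc (0.06), Snrpn (0.02), Magel2 (0.47), Inpp5f (-0.03) and Sfmbt2 (0.61). With library size only it turned for Kcnq1 (0.09), Ndn (0.09), Ube3a (0.05) and Gnas (0.08), where the median of all genes was 0.12. With the score it turned for Kcnq1 (0.02), Phlda2 (0.06), Rtl1 (0.04) and Inpp5f (-0.01). Uncalled slopes turned without PBS replicates 1 and 2 for Cdkn1c (-0.52), Slc22a18 (-0.31) and Ddc (-0.16), with yolk sac alone for Igf2r (0.05) and Zim1 (-0.06), and with the erythroid list alone for Zim1 (-0.18). Without the 2 farthest libraries they turned for Igf2r (0.03), Rian (-0.03), Zim1 (-0.23), Ddc (-0.04) and Impact (-0.04), and with the score as the only term for Igf2r (0.02). Leaving out single libraries turned the log2 fold changes of Kcnq1 (-0.05 to 0.06), Zim1 (-0.46 to 0.32), Slc22a18 (-0.04 to 0.19), Rtl1 (-0.36 to 0.09), Ddc (-0.42 to 0.03), Ndn (-0.06 to 0.04), Peg12 (-0.08 to 0.47) and Inpp5f (-0.01 to 0.11). It turned the slopes of Kcnq1ot1 (-0.11 to 0.02), Slc22a18 (-0.09 to 0.13), Zim1 (-0.10 to 0.36), Ddc (-0.02 to 0.34), Impact (-0.01 to 0.13) and Igf2r (-0.06 to 0.04), and the Cdkn1c to Phlda2 log2 ratio difference (-0.20 to 0.80).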
